A study of Mus musculus with 8 samples.

Results

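Met, Fgfr1, Fgfr2, Fgfr3, Egfr, Erbb2 and Erbb3 are receptor tyrosine kinases, Hgf is the ligand of Met, and Grb7 is an adaptor protein that binds activated receptors of this class. These 9 genes were taken by name, and every probe whose RefSeq accession maps to one of them was used, which gave 25 probes at 61 spots per array among 41174 probes. All 9 genes and all 25 probes passed the filter on dim signals, of 31183 genes measured. Of the 31183, 17114 have a matched gene name. The rest are array targets without one, each counted as a gene here, so a gene can be counted more than once. Shares of all genes below are of the 31183. The 9 genes were chosen with their ratios between the genotypes already known, so the ratios below are descriptions and carry no test.

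The RNA came from whole kidneys dissected at E13.5 from embryos of a CD1 C57BL/6 mix, either mutants labelled UB HDAC1,2-/-, in which a pair of histone deacetylases is deleted from the ureteric bud (UB), or wild type embryos. The driver of the deletion and any pooling of embryos are not given in the sources used here. Each of 4 biological replicates paired 1 RNA labelled mutant with 1 RNA labelled wild type on 2 two-colour Agilent arrays with the dyes exchanged, 8 arrays in all, by the labels of the samples. The design text of the series instead gives dye swaps for 2 of 4 arrays. The sample labels were followed, so the number of replicates, their pairing and the balance of the dyes rest on them. Values are log2 ratios, labelled mutant over labelled wild type, averaged over both dye orientations of a replicate.

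The ureteric bud is an epithelial tube whose branches become the collecting ducts, and the mesenchyme around it forms nephrons and stroma. Receptor tyrosine kinases sit in the membrane, pair up when a ligand binds, phosphorylate one another and recruit adaptors, which pass the signal to the ERK and PI3 kinase pathways. Ret is the receptor best known for driving branching of the bud, while Met, Egfr and Fgfr2 are further receptors of bud epithelium. Fgfr1 and Fgfr2 also act in the mesenchyme. Erbb3 has little kinase activity of its own and signals in pairs with Erbb2, which binds no ligand.

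The labels carry a doubt that touches every sign. Hdac2, one of the deleted genes, had log2 ratios of 0.45, 0.40, 0.61 and -0.43 in replicates 1 to 4 (SD 0.47), so the RNA labelled mutant was not the lower one in 3 of 4 replicates. Hdac2 cannot settle the labels, since the deletion is in the bud alone and the RNA is from whole kidney. Whether its probe lies in the deleted part of the gene was not examined. The authors' deposited table lists GRB7 at -0.77 and ERBB3 at -0.67 (log2), where the scanner ratios by the dye labels, averaged over the 8 arrays, are 0.77 and 0.67. That table does not state which genotype stands on top. If the mutant is on top there, every sign below turns, and "labelled mutant" and "labelled wild type" therefore name the RNAs.

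Grb7 stood 1.74-fold and a further Erbb3 probe 1.63-fold higher in the RNA labelled mutant, and Met stood higher by a smaller amount on 2 of its 3 probes. The other 7 genes, as measured by their RefSeq probes, stayed between -0.20 and 0.08 (log2) on all of their 21 probes, while median centring in place of loess spread the same probes from -0.27 to 0.31. Of the 9 genes, 4 were above 0, a share near the 44.6% of all genes. The 5 below 0 include Hgf at -0.0007 and Erbb3 at -0.0031. The median log2 ratio of the 9 genes was -0.00, beside -0.02 over all genes. Scanner ratios put 6 of the 9 genes and 16500 of all genes above 0, and median centring 5 of the 9 and 14555 of all.

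Limma called none of the 31183 genes at an adjusted p under 0.05 (0%, and 1838 genes at an unadjusted p under 0.05), which includes all 9. Above 0 in 4 of 4 replicates were Grb7 and Met, where 8.66% of all genes were, and below 0 in 4 of 4 replicates was Egfr, where 5.79% were. At least 1.4-fold higher was 1 member, Grb7, where 0.356% of all genes were (0.346% with 4 of 4 replicates above 0 as well), and no member was 1.4-fold lower, where 0.981% were.

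**Figure D1:**
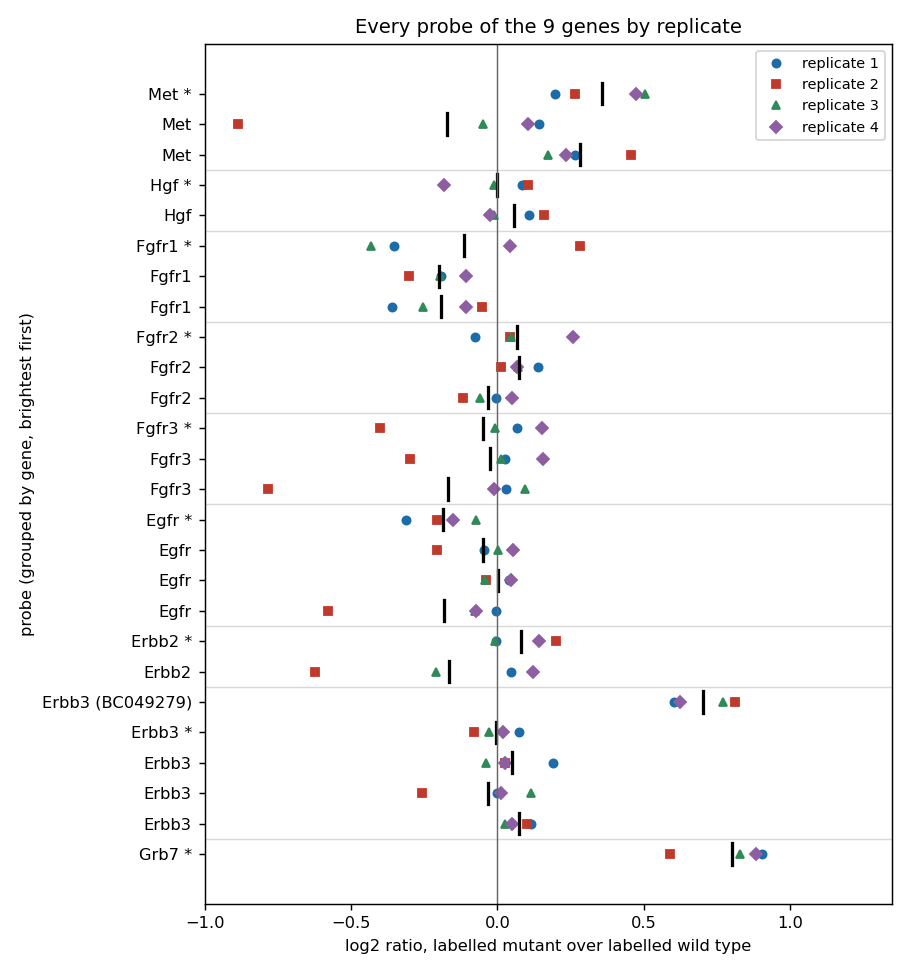
Each row is a probe, grouped by gene with the probe of highest signal first and marked with a star where it stands for its gene; the x axis is the log2 ratio, labelled mutant over labelled wild type, symbols are the 4 replicates and the bar is their mean. Grb7 lies between 0.59 and 0.90 and the Erbb3 probe of accession BC049279 between 0.60 and 0.81, while most other probes straddle 0 and the red squares of replicate 2 lie far to the left on several of them.

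Upstream sequence is shown for Met, 2 of whose 3 probes were above 0 on 8 of 8 arrays, and for Erbb2, which lies close to Grb7 on its chromosome. The RefSeq table of promoters (GRCm38.p6) matched 6 of the 9 members, without Fgfr1, Erbb3 and Grb7. Each line gives the 250 bases before the start of transcription that the table lists, at chr6:17463707-17463956 (plus strand) for Met and at chr11:98412234-98412483 (plus strand) for Erbb2. Capitals mark GC boxes (GGGCGG, searched on both strands) and AP-1 motifs (TGANTCA, searched on both strands), which do not overlap here.
Met: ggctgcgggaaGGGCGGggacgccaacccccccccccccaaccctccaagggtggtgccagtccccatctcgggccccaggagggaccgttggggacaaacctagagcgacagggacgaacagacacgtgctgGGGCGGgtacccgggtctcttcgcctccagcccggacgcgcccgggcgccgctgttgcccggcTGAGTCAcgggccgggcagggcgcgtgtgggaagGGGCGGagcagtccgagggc
Erbb2: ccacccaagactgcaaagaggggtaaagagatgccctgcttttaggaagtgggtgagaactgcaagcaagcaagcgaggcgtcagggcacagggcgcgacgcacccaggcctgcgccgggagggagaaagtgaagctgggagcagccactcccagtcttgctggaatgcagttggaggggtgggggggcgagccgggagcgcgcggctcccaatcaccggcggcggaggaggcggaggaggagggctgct
The Met window held 3 GC boxes and 1 AP-1 motif, and the Erbb2 window held neither. Among the other matched members, the Fgfr3 windows held 3 and 2 GC boxes and the Egfr window 1. Those of Hgf and Fgfr2 held 0. Of the 32851 promoter windows of the same length in the table, 32.7% held a GC box and 6.75% an AP-1 motif. A match is a run of letters and not a measured site.

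Grb7 was measured by 1 probe. Its normalized log2 intensity was 12.98, 12.60, 12.83 and 13.05 in the RNAs labelled mutant of replicates 1 to 4, against 12.07, 12.01, 12.00 and 12.17 in the RNAs labelled wild type. The 4 RNAs labelled mutant all stood above the 4 labelled wild type, a separation that 1.01% of all genes showed in this direction. By the probe that stands for each gene, Grb7 alone of the 9 showed it, and none was apart in the other direction, where 0.693% of all genes were. The log2 ratio was 0.80 ± 0.14 (SD, n = 4), with 0.90, 0.59, 0.83 and 0.88 in replicates 1 to 4. It was above 0 on 8 of 8 arrays, at 0.67 with the labelled mutant in Cy5 and at 0.93 with it in Cy3. Within slide 1, which held replicates 1 and 2, the mean was 0.75, and within slide 2 it was 0.86.

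Erbb3, the ErbB receptor that binds neuregulins, was measured by 4 RefSeq probes and by a further probe of GenBank accession BC049279. The rule on RefSeq accessions does not take that probe, and it is named ERBB3 by the authors' deposited table. It was singled out after its values were seen. Its log2 intensity was 11.46, 11.36, 11.69 and 11.54 in the RNAs labelled mutant, against 10.86, 10.55, 10.92 and 10.91 in the RNAs labelled wild type. Both sets were apart, with every RNA labelled mutant above every RNA labelled wild type, as for 1.01% of all genes. The log2 ratio was 0.70 ± 0.10 (SD, n = 4), above 0 on 8 of 8 arrays, with 0.70 for the labelled mutant in Cy5 and 0.71 in Cy3.

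The 4 RefSeq probes of Erbb3 did not share that ratio. Their means were -0.00 ± 0.07, 0.05 ± 0.10, -0.03 ± 0.16 and 0.07 ± 0.04 (SD, n = 4 each). The first of these, which stands for the gene, had log2 intensities of 8.02, 8.08, 7.62 and 7.83 in the RNAs labelled mutant, against 7.95, 8.16, 7.65 and 7.81 in the RNAs labelled wild type, which overlap. All 4 probes were well above background on at least 7 of 8 arrays in both RNAs, but they were dim. Their mean log2 intensities were 7.91, 7.41, 7.33 and 7.13 in the same order, against 11.17 for the further probe. The part of the dim signal in their ratios was not tested. Probe sequences are not used here, so the transcripts that the probes detect were not compared.

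**Figure D2:**
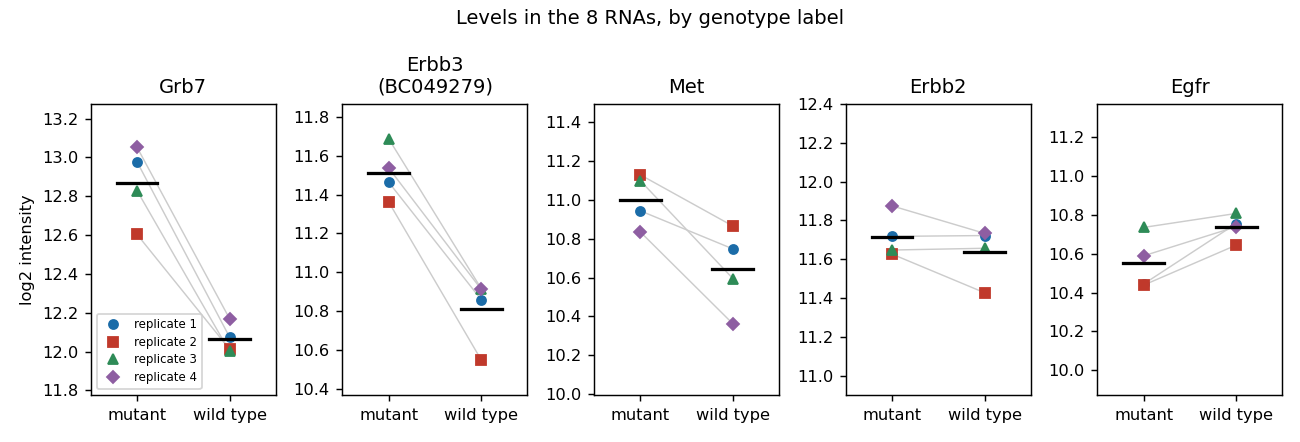
Normalized log2 intensity (y axis, a span of equal height in each panel) in the RNAs labelled mutant and wild type, for the probe that stands for Grb7, Met, Erbb2 and Egfr and for the Erbb3 probe of accession BC049279; symbols are replicates, grey lines join the RNAs of a replicate and bars are means. The groups are apart for Grb7 and the Erbb3 probe and overlap for Met, Erbb2 and Egfr.

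Met, the receptor of hepatocyte growth factor, had 3 probes that disagreed. The probe that stands for the gene had log2 intensities of 10.94, 11.13, 11.10 and 10.83 in the RNAs labelled mutant, against 10.75, 10.87, 10.60 and 10.36 in the RNAs labelled wild type. Within each replicate the RNA labelled mutant was higher, while the groups overlapped. The log2 ratio was 0.36 ± 0.15 (SD, n = 4), and it was larger in Cy3 (0.60) than in Cy5 (0.12). A second probe stood at 0.28 ± 0.12, with log2 intensities of 8.16 to 8.51 in the RNAs labelled mutant, against 7.98 to 8.05 in the RNAs labelled wild type, which do not overlap. By the probe that stands for each gene, 1.01% of all genes were apart in this direction. The other Met probe stood at -0.17 ± 0.48, with 0.14, -0.88, -0.05 and 0.10 in replicates 1 to 4, and replicate 2 was far below the other 3.

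Hgf, the ligand of Met made by mesenchyme, was near 0 on both probes. The probe that stands for the gene had log2 intensities of 7.57, 7.26, 7.56 and 7.62 in the RNAs labelled mutant, against 7.48, 7.16, 7.57 and 7.80 in the RNAs labelled wild type, with much overlap. Its log2 ratio was -0.00 ± 0.13 (SD, n = 4) and that of the other probe 0.06 ± 0.09. The signals were dim, since the first probe was well above background on 7 of 8 arrays in either RNA and the other on 6 arrays in the RNA labelled mutant and on 5 in the RNA labelled wild type.

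Genes that bring Hgf to its active form or hold back that step were measured beside it. St14 and Hpn are membrane proteases, Hgfac is a protease that cleaves pro-Hgf, Plau is urokinase and Spint1 is an inhibitor of such proteases. By the probe that stands for each gene, all 5 measured genes of this list of 6 were above 0, with a median log2 ratio of 0.17, against -0.02 over all genes, and none passed the test. St14 was highest at 0.19 ± 0.16 (SD, n = 4) and Hgfac lowest at 0.07 ± 0.13. Of the 5 genes, 4 had a second probe, and these stood near 0, at 0.024 for St14, 0.0014 for Hpn, -0.0085 for Plau and -0.0072 for Spint1, so the count rests on the choice of probe. By scanner ratios St14 stood at 0.35 and with median centring at 0.33. Spint1 alone of the 5 was above 0 in 4 of 4 replicates.

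The fibroblast growth factor receptors differed little between the RNAs. Fgfr1 stood at -0.11 ± 0.34 (SD, n = 4) on the probe that stands for it, with 9.60, 9.88, 9.33 and 9.99 log2 intensity in the RNAs labelled mutant, against 9.95, 9.60, 9.76 and 9.94 in the RNAs labelled wild type. Its 4 replicates took both signs, and its dye orientations opposed each other, at -0.44 in Cy5 and 0.22 in Cy3. The other Fgfr1 probes stood at -0.20 ± 0.08 and -0.19 ± 0.14, each below 0 in 4 of 4 replicates, so all 3 probes were on the lower side.

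Fgfr2, the receptor of Fgf7 and Fgf10 in its epithelial form, was measured at 10 spots per array by 1 of its probes. That probe stood at 0.07 ± 0.05 (SD, n = 4), and the median over arrays of the SD among its spots was 0.22. The probe that stands for the gene had log2 intensities of 10.97, 10.97, 10.95 and 11.35 in the RNAs labelled mutant, against 11.05, 10.93, 10.90 and 11.09 in the RNAs labelled wild type, which overlap. Its log2 ratio was 0.07 ± 0.14 and that of the last probe -0.03 ± 0.07.

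Fgfr3 had log2 intensities of 10.67, 10.24, 10.43 and 10.54 in the RNAs labelled mutant, against 10.60, 10.64, 10.43 and 10.38 in the RNAs labelled wild type. The groups overlap, and replicate 2 differs in sign from replicates 1 and 4. The log2 ratio was -0.05 ± 0.25 (SD, n = 4), and the other probes stood at -0.03 ± 0.19 and -0.17 ± 0.41. Replicate 2 was the lowest of the 4 on all 3 Fgfr3 probes, and over the 25 probes it was the lowest on 13 and the highest on 6.

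Egfr, the receptor of epidermal growth factor, was below 0 in 4 of 4 replicates on the probe that stands for it. Its log2 intensity was 10.44, 10.44, 10.74 and 10.59 in the RNAs labelled mutant, against 10.76, 10.64, 10.81 and 10.74 in the RNAs labelled wild type. Each replicate was lower in the RNA labelled mutant, and the groups overlap. The log2 ratio was -0.18 ± 0.10 (SD, n = 4) on this probe, which is spotted 10 times per array, and it differed between the dye orientations, with -0.34 in Cy3 and -0.03 in Cy5. Another Egfr probe, of accession NM_007912 and also at 10 spots per array, stood at 0.00 ± 0.05, and the remaining probes stood at -0.05 ± 0.11 and -0.18 ± 0.27. The probe that stands for the gene has accession NM_207655.

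Erbb2, the partner of the other ErbB receptors, had log2 intensities of 11.72, 11.63, 11.65 and 11.88 in the RNAs labelled mutant, against 11.72, 11.43, 11.66 and 11.73 in the RNAs labelled wild type. The values overlap. The log2 ratio was 0.08 ± 0.10 (SD, n = 4) on the probe with 10 spots per array, at -0.07 in Cy5 and 0.24 in Cy3. Its other probe stood at -0.17 ± 0.34, where replicate 2 was at -0.62.

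**Figure D3:**
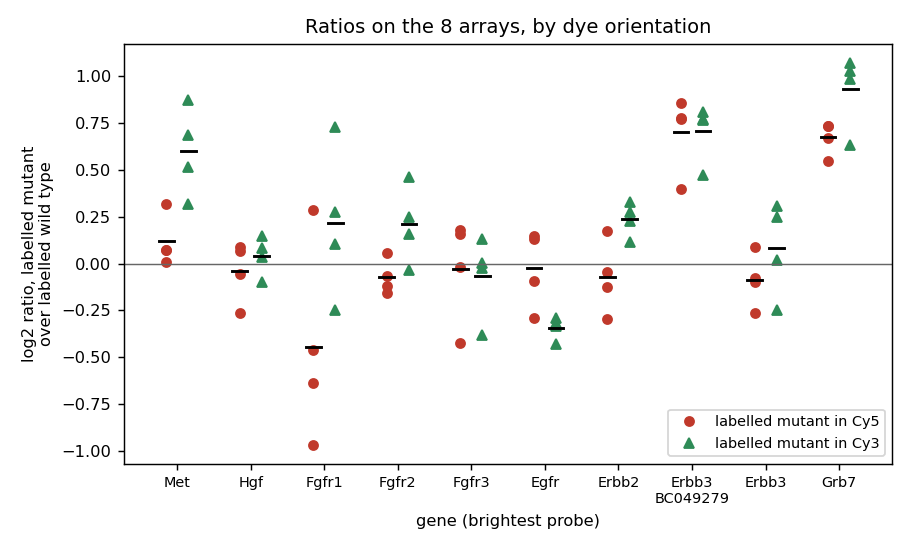
Log2 ratios on the 8 arrays (y axis) for the probe that stands for each gene and for the Erbb3 probe of accession BC049279, split by the dye of the RNA labelled mutant; bars are means of 4 arrays. Grb7 and the Erbb3 probe are above 0 in both orientations, Met is at 0.12 in Cy5 and 0.60 in Cy3, and Hgf, Fgfr1, Fgfr2, Erbb2 and the RefSeq probe of Erbb3 change sign between orientations.

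Over the 9 genes, the mean ratio had the same sign in both dye orientations for 4 and opposite signs for 5. Across all genes the ratios of both orientations correlated at 0.07, 0.70, -0.28 and -0.30 in replicates 1 to 4. Averaging the orientations balances the dyes within each replicate. On the probes that stand for Fgfr2, Fgfr3, Erbb2 and Hgf, the mean ratios were smaller in size than their SDs over replicates. The Fgfr2 probe with 10 spots per array, at 0.07 ± 0.05, was above 0 in 4 of 4 replicates, as were 8.66% of all genes.

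Grb7 lies next to Erbb2 on chromosome 11, with Mien1 between them, in the RefSeq gene table of GRCm38.p6 (used for order only, since the array design cites another build). The genes beside Grb7 did not share its ratio. Erbb2 stood at 0.08 ± 0.10 (SD, n = 4) and Mien1, a membrane-anchored protein, at 0.07 ± 0.12. On the near side of Erbb2, Pgap3, a remodeller of GPI anchors, stood at 0.10 ± 0.19 and Pnmt, the enzyme that makes adrenaline, at -0.09 ± 0.25. Beyond Grb7, the lymphoid factor Ikzf3 stood at -0.00 ± 0.15 and Zpbp2 at 0.09 ± 0.18. None of these 6 neighbours had 1 sign in 4 of 4 replicates, whereas the Grb7 values of every replicate lay above all of theirs.

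**Figure D4:**
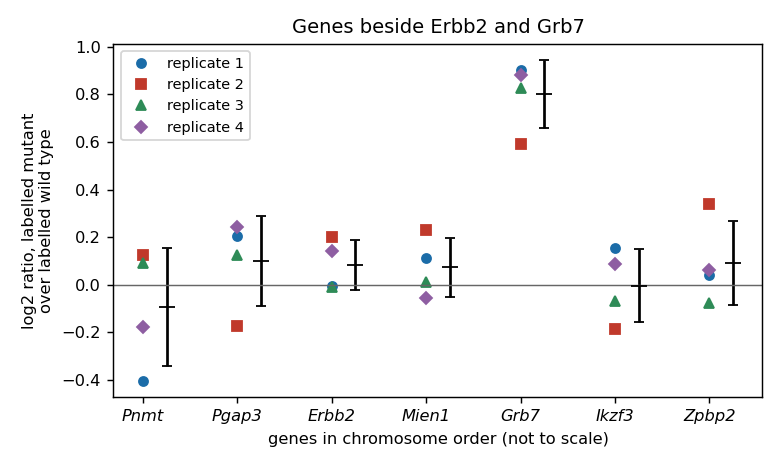
Log2 ratio, labelled mutant over labelled wild type (y axis), for Erbb2, Grb7, the gene between them and the next 2 on either side, in chromosome order and not to scale; symbols are replicates and the error bars are mean ± SD of 4 replicates. Grb7 lies between 0.59 and 0.90 and its neighbours between -0.40 and 0.34.

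The genes most like Grb7 over the 8 RNAs were named by the highest Pearson correlation of log2 intensity among 17113 named genes. They were Epcam, an adhesion molecule of epithelium (r = 0.97), Psph, a phosphatase of serine synthesis (r = 0.97), and Slc32a1, which loads inhibitory transmitters into vesicles (r = 0.97). Their log2 ratios were 0.67 ± 0.14, 0.67 ± 0.12 and 0.59 ± 0.06 (SD, n = 4). For Met they were Fam3c, a secreted protein, Ube2j1, a ubiquitin-conjugating enzyme, and Mrpl1, a protein of the mitochondrial ribosome, at r of 0.93, 0.93 and 0.92 and with log2 ratios of 0.29 ± 0.07, 0.26 ± 0.04 and 0.19 ± 0.10. These correlations describe 8 points that share arrays in pairs and include the difference between the labels, and the genes were picked as the highest of many.

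Other genes of the same pathways are counted next, none of which passed the test over all genes. Of 4 further receptors, 1 was above 0, namely Fgfr4 at 0.24 ± 0.18 (SD, n = 4), and the lowest was Mst1r, the Met relative that binds macrophage-stimulating protein, at -0.06 ± 0.17. Among 41 other receptor tyrosine kinases of 44 listed, 13 were above 0 and the median was -0.04. They ranged from -0.40 ± 0.89 for Insrr, a relative of the insulin receptor, to 0.57 ± 0.45 for Epha1, an ephrin receptor of epithelium. By scanner ratios 3 of the 4 and 21 of the 41 were above 0, Mst1r among them at 0.03, and with median centring 2 of the 4 and 21 of the 41.

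The ligands gave no common direction. Of 8 measured FGF ligands, 3 were above 0, with a median of -0.06, from Fgf7, a ligand of epithelial Fgfr2, at -0.33 ± 0.84 (SD, n = 4) to Fgf8, which early nephrons make, at 0.15 ± 0.10. Of 9 measured ErbB ligands, 3 were above 0, with a median of -0.14, from Epgn (epigen) at -0.40 ± 0.92 to Btc (betacellulin) at 0.17 ± 0.17. The SDs of Fgf7 and Epgn exceed the size of their means. By replicate, the ErbB ligand median was 0.14, -0.62, 0.07 and 0.03 in replicates 1 to 4, below 0 in replicate 2 alone. By scanner ratios 6 FGF ligands and 4 ErbB ligands were above 0, and with median centring 5 and 2. Btc stood at 0.55 by scanner ratios and at 0.07 with median centring, and Fgf8 at 0.16 and 0.32.

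Adaptors and docking proteins were evenly divided, 8 above 0 and 8 below, with a median of 0.00, while median centring put 11 of the 16 above 0. Grb14, of the same small family as Grb7, was highest of these 16 at 0.40 ± 0.27 (SD, n = 4) and above 0 in 4 of 4 replicates. Grb10, the remaining relative, stood at -0.10 ± 0.11, and Gab2, a docking protein, was lowest at -0.25 ± 0.64. Both values are of the probe that stands for the gene. The 3 Grb10 probes ranged from -0.40 to -0.10. Ptpn11, of the same list, stood at 0.00 but at -0.59 on another probe, so the lowest gene rests on the choice of probe. Among 7 receptor inhibitors and E3 ligases, 4 were above 0, from the ubiquitin ligase Cblc at -0.40 ± 1.07 to Lrig1, which promotes the turnover of ErbB receptors and Met, at 0.23 ± 0.16. Median centring put 5 of the 7 above 0 and Lrig1 at 0.42, and scanner ratios put Lrig1 at 0.37.

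Targets and feedback genes of the ERK pathway, which lies downstream of all of these receptors, had a median of 0.01, with 11 of 18 above 0. Dusp6, a phosphatase that inactivates ERK, was highest at 0.23 ± 0.15 (SD, n = 4), and Spred1, an inhibitor of the pathway, was lowest at -0.25 ± 0.47. Another Spred1 probe stood at -0.03, and Etv5 stood at 0.05 but at 0.40 on another probe. The highest and lowest gene of this list thus rest on the choice of probe. Above 0 in 4 of 4 replicates were 2 of the 18, and below 0 in 4 of 4 was 1. With median centring the list median was 0.14 and Dusp6 stood at 0.61, and by scanner ratios the median was 0.04, Dusp6 stood at 0.14 and Spred1 at -0.13.

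**Figure D5:**
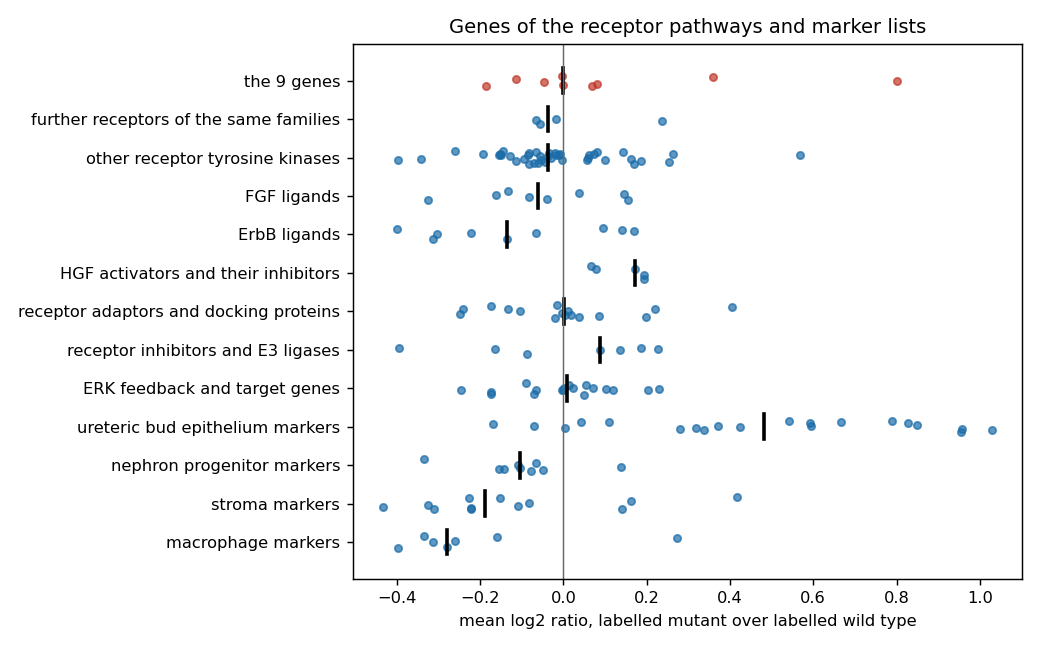
Mean log2 ratio over 4 replicates (x axis) for each measured gene of the lists named at left; points are genes, spread vertically for legibility, and bars are medians. Grb7 at 0.80 and Met at 0.36 lie at the right of the 9 genes. Medians of the pathway lists run from -0.14 for ErbB ligands to 0.17 for HGF activators and their inhibitors. The ureteric bud epithelium markers have a median of 0.48.

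Markers of cell types moved beside these ratios. Of 20 ureteric bud epithelium markers, a list chosen with earlier results of these data known, 18 were above 0, beside 44.6% of all genes. Their median was 0.48, with Krt18 highest at 1.03 ± 0.33 (SD, n = 4) and Wnt9b lowest at -0.17 ± 0.70. Ret, the other marker below 0, stood at -0.07 ± 0.25. By other probes Tfcp2l1 (0.95) went down to 0.07 and Grhl2 (0.42) to -0.03, and Krt8 (0.85) up to 0.96. All 20 had passed the filter on dim signals, which itself requires signal above background. Summed normalized intensity of the 20 bud markers ranged from 99577 to 116969 in the RNAs labelled mutant, against 67220 to 80395 in the RNAs labelled wild type. Stroma markers had 3 of 12 above 0 (median -0.19) and summed to between 196125 and 248687 in the RNAs labelled mutant, against 225106 to 297360 in the RNAs labelled wild type. Postn was the highest stroma marker at 0.42 ± 0.19 and was above 0 in each replicate. Macrophage markers had 1 of 7 above 0 (median -0.28) and summed to between 4170 and 5832 in the RNAs labelled mutant, against 5222 to 7111 in the RNAs labelled wild type. The macrophage marker above 0 was Ptprc at 0.27 ± 0.22, above 0 in each replicate, while another Ptprc probe stood at -0.32. Nephron progenitor markers had 1 of 9 above 0 (median -0.10) and summed to between 53180 and 55681 in the RNAs labelled mutant, against 52281 to 63126 in the RNAs labelled wild type. Early nephron markers had 6 of 7 above 0 (median 0.19), endothelium markers 5 of 8 (median 0.03) and neuron and glia markers 1 of 5 (median -0.21). The lower side of the stroma and nephron progenitor lists turns with median centring, which put 10 of 12 and 7 of 9 above 0, whereas the bud list had 19 of 20 above 0 and the macrophage list 1 of 7. Endothelium markers had 8 of 8 above 0 with median centring and 7 of 8 by scanner ratios, early nephron markers 6 and 7 of 7, and neuron and glia markers 2 and 1 of 5. Their part in the ratios of Grb7, Erbb3 and Met was not tested. In whole kidney RNA, more cells of a type and more RNA per cell cannot be told apart. Well above background per array were 82.1% to 95.9% of the non-control spots for the labelled mutant, against 79.2% to 97.1% for the labelled wild type, and no spot was saturated.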

How the data were processed

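Spot intensity and local background are deposited as medians over pixels, without normalization, from Agilent Feature Extraction 10.5.1.1 per the file headers. The deposited log10 ratio is red over green processed signal, dye-normalized by the scanner software per the file headers, and quality flags in the deposited files take the values 0 or 1. The authors' deposited table gives log2 ratios, with direction not stated. Per the labels, 0.5 µg of total RNA was labelled per sample.

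Median signals, since the files hold no mean signals, were corrected with normexp (offset 50) and loess within arrays in limma 3.58.1 (R 4.3.3), with control and outlier spots left out. Spots of a probe were averaged, ratios were turned to labelled mutant over labelled wild type, and both arrays of a replicate were averaged. The filter kept the 39520 of 41174 probes with a signal flagged well above background, in either channel, on 4 or more arrays of 8. RefSeq accessions named 25097 probes (GRCm38.p6). The probe with the highest mean intensity stood for its gene, with at least 3 replicates. Levels per RNA were taken after Aquantile scaling and averaged over both dyes. Limma's lmFit and eBayes, two-sided, with Benjamini-Hochberg adjustment over 31183 genes, served as background, and was tested on simulated data. RNAs of a replicate share arrays, and their deviations from group means correlated at 0.537 to 0.769, so the numbers pair them. The number of arrays limits the precision. Members and lists were chosen with earlier results of these data known. Named are all members, the highest and lowest gene of each pathway list and of the bud marker list, the neighbours of Erbb2 and Grb7, and the 3 genes most like Grb7 and Met. Of the stroma and macrophage lists the highest gene is named. Further genes are named where another probe differed, and Ret as the other bud marker below 0.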

Additional observations from a re-analysis of the deposited data

Results flagged for a closer look

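In groups of 4 values, 3 of the 30 examined held a sample far from the other 3, and chance flags about 1 in 20 such groups. The log2 intensity of Hgf in the RNA labelled mutant of replicate 2 was 7.26, below the other 3 by 0.837 of the range. Fgfr2 stood at 11.35 in the RNA labelled mutant of replicate 4, above the others by 0.939 of the range. The Erbb3 probe of accession BC049279 stood at 10.55 in the RNA labelled wild type of replicate 2, below the others by 0.844 of the range.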

How the results depend on the processing

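Grb7 and Met stayed above 0 and Egfr below 0 under each of the 19 alternatives run for them, while Hgf, Fgfr1, Fgfr2, Fgfr3, Erbb2 and Erbb3 changed sign under at least 1. Several alternatives kept the same probe and mean. Leaving out a replicate or taking 1 slide could not turn Grb7, Met or Egfr, which had 1 sign in 4 of 4 replicates. The 19 are therefore not 19 separate checks of the sign, and another Met probe stood at -0.17. The number of genes that limma called was 0, but 5 with scanner ratios, 7 with median centring, 1 with the labelled mutant in Cy5 alone, 101 within slide 2, 74 with all 8 arrays and the replicate block, 78 with array weights on 4 ratios, 108 with array weights and the replicate block, and 0 to 11 with each replicate left out (11 without replicate 2, which had an array weight of 0.23). The replicate block had a consensus correlation of -0.026. The 74 and 108 calls thus counted the 8 arrays almost as separate replicates, where there were 4. Members above 0 numbered 4, but 2 with the labelled mutant in Cy5 and 7 with it in Cy3, and 4 to 6 with each replicate left out. With median centring the log2 ratios were 0.55 for Met, -0.14 for Hgf, 0.25 for Fgfr2, -0.025 for Egfr, 0.31 for Erbb2, -0.089 for Erbb3 and 1.08 for Grb7. With the labelled mutant in Cy5 alone they were 0.12 for Met, -0.071 for Fgfr2, -0.026 for Egfr, -0.073 for Erbb2 and -0.089 for Erbb3, and in Cy3 alone 0.60, 0.21, -0.34, 0.24 and 0.082. The mean over probes gave 0.16 for Met and -0.042 for Erbb2, scanner ratios 0.079 for Erbb3, and the probe of the accession named by the authors' table, chosen after seeing the data, 0.70 for Erbb3. The cause was not tested. With each replicate left out, Grb7 ranged from 0.77 to 0.87, Met from 0.31 to 0.41 and Egfr from -0.22 to -0.14. Unpaired separate channels called 0 genes. Hgf had no value when both channels had to be well above background on all arrays, since its signals were dim.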
